A study of Mus musculus with 4 samples.

Results

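The 10 genes described here encode proteins of the growth cone, the motile tip of a growing axon, and effectors that neurons switch on after their axon is cut. They were chosen by name: Gap43, Basp1, Marcks, Marcksl1, Crmp1, Dpysl2, Dpysl3, Dclk1, Ecel1 and Sprr1a. All 10 were found among the 78334 gene identifiers of the counts table, and all 10 passed the filter on low counts together with 11427 genes in all. The cells were retinal ganglion cells, which send their axons to the brain through the optic nerve, collected 2 weeks after an optic nerve crush in wild-type mice of both sexes. An adeno-associated virus (AAV2) carrying mCherry and an shRNA had been injected into the eye at 8 weeks of age, 2 weeks before the crush. The shRNA was directed against the microRNA miR-132-3p in the anti-miR132-3p group and had a scrambled sequence in the control group, so that crush, virus and mCherry were common to both groups. Retinas were pooled, 10 per condition. Thy1 panning and a sort on mCherry isolated the transduced cells, and about 5000 cells were taken for each of 2 libraries per group, with about 40% of ganglion cells transduced. The control libraries bear the name mCherry in the counts table and were taken as the scramble by exclusion, so every direction below depends on that reading.

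Growth cones advance by coupling signals at the membrane to actin and microtubules. GAP43, BASP1, MARCKS and MARCKSL1 are acylated proteins of the inner membrane face that bind acidic lipids and calmodulin and are substrates of protein kinase C. The collapsin response mediator proteins (CRMP1 and the Dpysl gene products) and the doublecortin-like kinase DCLK1 act on microtubules and are phosphorylated downstream of guidance cues. ECEL1, a membrane protein of the neprilysin peptidase family, and SPRR1A, a small proline-rich protein first known from skin, are produced by many neurons after axon injury.

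The microRNA and the 2 designed inserts are shown because the comparison turns on them. The mature miR-132-3p is from RefSeq (GRCm38.p6), the inserts are from the labels, and capitals mark the seed of the microRNA (bases 2 to 8) and its complement in the insert.
miR-132-3p: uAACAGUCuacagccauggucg
anti-miR132-3p insert: cgaccatggctgtaGACTGTTa
scrambled insert: tcgagggcgacttaaccttagg
The anti-miR132-3p insert was the full reverse complement of the mature microRNA, and the scrambled insert held no match to the 6-base core of the seed site, ACTGTT, on either strand. The microRNA itself could not be read from these libraries: Mir132 and Mir212 were listed at 0 in all 4, and libraries of polyadenylated RNA do not measure mature microRNA.

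Seed matches were sought in the annotated 3' UTR of the longest coding transcript of each of the 10 genes (GENCODE M21, sense strand). The sites counted were GACTGTTA (8mer), GACTGTT (7mer-m8), ACTGTTA (7mer-A1) and ACTGTT (6mer), each stretch being counted once, by its longest form. Dclk1 held a 7mer-m8 and a 6mer site, Dpysl3 an 8mer and a 6mer site, Marcks 2 6mer sites and Crmp1 1 6mer site. The sites of Dclk1, Marcks and Crmp1 are shown in capitals with their flanks, to set beside the counts that follow.
Dclk1 7mer-m8: tgaaccatcatGACTGTTtccatattttt
Dclk1 6mer: aagccttcagaACTGTTggtatcaagag
Marcks 6mer, first: gtggaatggttACTGTTtatactgtggt
Marcks 6mer, second: ctatttcataaACTGTTtccttgtcatt
Crmp1 6mer: catcgtcctatACTGTTccctccactcc
Gap43, Basp1, Marcksl1, Dpysl2, Ecel1 and Sprr1a held none of these letters in that window. Among the 10423 tested genes with an annotated coding transcript, 22.7% held a 7mer or 8mer site and 3.03% an 8mer. A site of any of the 4 kinds was held by 44.0%. Any coding transcript with an empty 3' UTR counted there as holding none. Of the 10 genes, 2 held a 7mer or 8mer site and 4 held any site. A match of letters is a description and was not tested as a site of repression.

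Library totals lay between 1731199 and 1846637 counts. The 2 libraries of a group differed by no more than sampling noise (chi-square per degree of freedom 1.02 for the scramble and 1.00 for the anti-miR132-3p pair, against 4.01 to 4.03 between groups), so each pair was counted as 1 sample, and differences between the groups carry no replicate check. Levels are in CPM, counts scaled to library size with TMM. Folds compare the summed pairs, and the brackets give exact 95% intervals of counting error only. A gene is said to be called where edgeR's quasi-likelihood test gave a Benjamini-Hochberg adjusted p under 0.05 over all 11427 genes, and such a call compares reads of 2 pools and says nothing of the spread between animals. Ganglion cell markers were present in every library, with Slc17a6, the glutamate transporter of these cells, at 304 to 317 CPM in the summed pairs and Rbpms at 50.1 and 41.8 CPM, whereas the ganglion cell factor Pou4f2 had only 8 and 7 counts. The summed markers of 11 ganglion cell genes were at 1884 and 1910.0 CPM with the scramble and 2122 and 2056 CPM in the anti-miR132-3p libraries. Of these, 10 were tested, Thy1, Nefm and Tubb3 were called higher and Pou4f1 was called lower. Summed markers of some other retinal cells also differed. Rod genes (5) held 203 counts with the scramble against 8 with the anti-miR132-3p shRNA, and 8 microglia genes 5 against 64. In the same order, 4 astrocyte genes held 82 against 47 and 6 Müller glia genes 4352 against 6066. The 5 bipolar cell genes held 7 against 15, and the interval of their fold, 0.861 to 6.51, included no change. The rod sum was at 58.8 and 53.7 CPM against 2.90 and 1.74 CPM, and the microglia sum at 1.66 and 1.11 CPM against 15.1 and 22.1 CPM. The Müller sum was at 1199.6 and 1212 CPM against 1773 and 1747 CPM, and most of it was Dkk3, at 1096 and 1618 CPM in the summed pairs. Apoe was also higher, with 69 and 218 counts. The other Müller genes were not higher: Glul had 257 and 229 counts, Rlbp1 44 and 26, Aqp4 16 and 6 and Slc1a3 11 and 10. Most astrocyte counts were of Gfap, 71 and 47, and Gfap was not called. Amacrine markers were at 2136 and 2173 CPM against 2357 and 2305 CPM, most of it Pax6, which was not called, at 1634 and 1609 CPM in the summed pairs. Gad2 (1.38-fold), Slc6a9 (2.72-fold) and Tfap2a (1.23-fold) were called higher, 3 of 4 amacrine genes tested. Gad1, Slc32a1 and Tfap2b were listed at 0 in every library. The rod gene Gnat1 and the bipolar gene Grm6 were also listed at 0. By library totals without TMM, 3 counts in a library correspond to 1.62 to 1.73 CPM. The part of these cells in the results below was not tested, and in sorted pools fewer cells of a type and less RNA per cell cannot be told apart.

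With the anti-miR132-3p shRNA, Marcksl1, Crmp1, Dclk1 and Ecel1 (4 of 10) were called higher and Gap43, Basp1 and Marcks (3 of 10) were called lower, against 13.5% and 10.4% of all tested genes. Dpysl2, Dpysl3 and Sprr1a were not called. Per kilobase of transcript, each of the 10 lay above at least 74.4% of tested genes with the scramble, and the shares of all genes were not matched for level. Both anti-miR132-3p libraries lay above both scramble libraries for 6 of the 10 genes and below them for 3, as they did for 31.3% and 30.6% of all tested genes. The median log2 fold change of the 10 was 0.13, and that of all tested genes was -0.0030. Most differences were small: Ecel1 alone reached 1.5-fold, whereas 12.6% of tested genes were at least that much higher and 5.12% at least that much lower. Together the 10 genes held 6295 and 6179.7 CPM with the scramble and 6355 and 6333 CPM in the anti-miR132-3p libraries, a summed fold of 1.02 (0.998 to 1.04). The interval of the sum includes no change, although 7 of its 10 genes were called in one direction or the other. Much of the sum was Dpysl2, which was not called. In the summed pairs it held 3051 of 6237 CPM with the scramble and 3092 of 6344 CPM with the anti-miR132-3p shRNA.

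**Figure D1:**
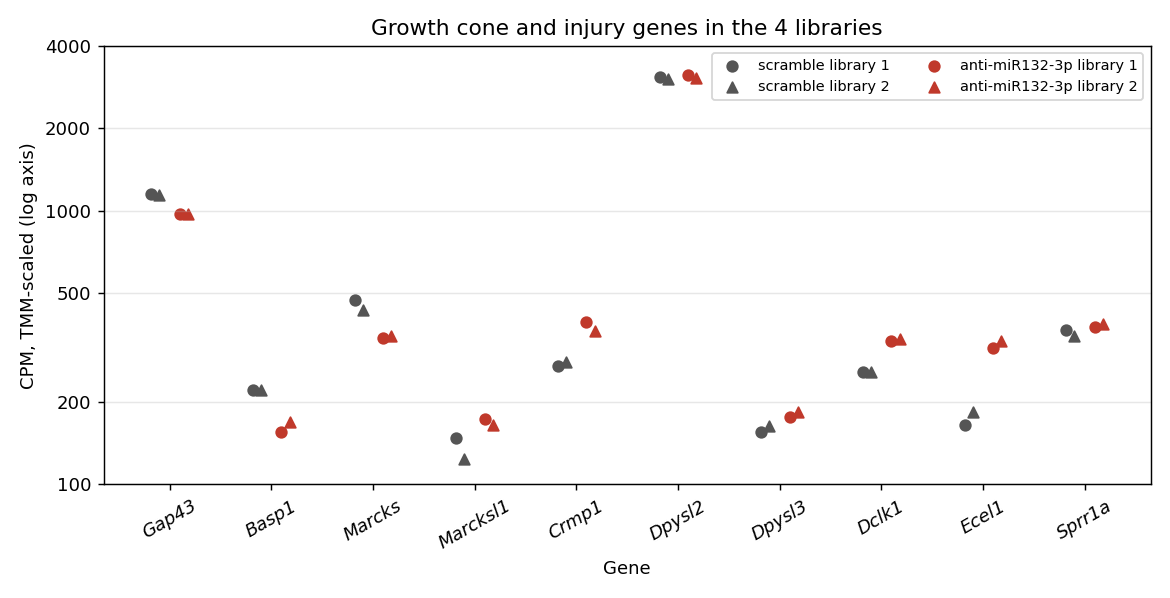
TMM-scaled CPM (log axis) of the 10 genes in each of the 4 libraries, grey for the scramble and red for the anti-miR132-3p shRNA, circles and triangles for libraries 1 and 2. The groups are apart for every gene except Dpysl2, with Gap43, Basp1 and Marcks lower and Ecel1, Crmp1, Dclk1 and Marcksl1 higher in red.

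Across genes the fold change went with GC content (Spearman correlation 0.24) and transcript length (0.28), over 11273 genes that are not independent replicates and share their libraries. Of the 10 genes, Ecel1, Marcksl1 and Basp1 are among the more GC-rich, with 60.01%, 58.2% and 56.4% G or C, and Marcks and Dclk1 among the less GC-rich, with 45.1% and 46.3%. Transcript lengths ran from 806 bases for Sprr1a to 7962 for Dclk1. Calls were therefore also made in a fit corrected for GC content and length, in which 5 of the 10 were called higher and 2 were called lower, against 10.7% and 7.27% of all tested genes. In that fit Gap43 lost its call, Sprr1a gained one, and the other 6 calls stood.

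Among the membrane-bound group, Gap43 had the highest level. Its product, GAP43, is the classic marker of growth cones and of regenerating axons. Gap43 stood at 1156 and 1144 CPM in the scramble libraries and at 969 and 975 CPM in the anti-miR132-3p libraries. Both anti-miR132-3p values lay below both scramble values, and the libraries of a group were close to each other. The summed pairs differed by 1.18-fold (1.13 to 1.24), lower with the anti-miR132-3p shRNA, and edgeR's quasi-likelihood test gave an adjusted p of 3.8e-05. After the correction for GC content and length the log2 difference was 0.02 in place of -0.24 and was not called (adjusted p = 0.789 in edgeR). The lower level of Gap43 therefore depends on leaving out that correction.

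Basp1, also known as CAP-23, encodes a myristoylated protein that gathers at lipid-rich patches of the growth cone membrane. Its level was 221 and 221 CPM with the scramble and 156 and 170 CPM in the anti-miR132-3p libraries. The groups did not overlap, and the summed level was 1.36-fold lower (1.22 to 1.51), the largest drop among the 10 genes. In the corrected fit it was 1.41-fold lower. Marcks, whose product crosslinks actin and leaves the membrane when phosphorylated by protein kinase C, was at 473 and 433 CPM against 342 and 349 CPM. Again the groups did not overlap. Marcks was 1.31-fold lower (1.21 to 1.41) with the anti-miR132-3p shRNA and 1.28-fold lower in the corrected fit. The 2 6mer matches of Marcks shown above lie in a gene whose count was lower with the anti-miR132-3p shRNA. Crmp1 and Dclk1, which also hold matches, were called higher, and a link of matches to direction was not tested.

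Marcksl1, which encodes the smaller relative of MARCKS, went the other way. It was at 148 and 124 CPM with the scramble and 173 and 165 CPM in the anti-miR132-3p libraries. The 2 scramble libraries differed more from each other than the nearest libraries of the groups did, although the groups did not overlap. Its summed level was 1.248-fold higher (1.105 to 1.41), with an adjusted p of 0.0166 in edgeR's quasi-likelihood test. The corrected fit gave 1.20-fold (edgeR adjusted p = 0.0422). DESeq2's Wald test did not call it (adjusted p = 0.234). A pseudogene of Marcksl1, Marcksl1-ps4, was listed at 0 in all 4 libraries.

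The divergence within this family can be read without any scaling of libraries, as the ratio of 2 genes' counts in the same library. There were 3.20 and 3.49 counts of Marcks for each count of Marcksl1 with the scramble and 1.97 and 2.11 with the anti-miR132-3p shRNA. The ratio was 1.63-fold lower (1.41 to 1.89) in the anti-miR132-3p pair. Gap43 counts per Marcksl1 count were also lower, 8.47 with the scramble and 5.74 with the anti-miR132-3p shRNA. The ratio of Gap43 to Marcks was 2.54 and 2.81, and that of Gap43 to Basp1 was 5.21 and 5.97. These ratios are free of library scaling but not of GC content and length. In the corrected fit Gap43 was 1.18-fold lower relative to Marcksl1, 1.29-fold higher relative to Marcks and 1.43-fold higher relative to Basp1, so which of them Gap43 moved with depends on the correction. Marcks relative to Marcksl1 was 1.53-fold lower there. The 4 genes together were at 1997 and 1921 CPM with the scramble and 1640.3 and 1659.8 CPM in the anti-miR132-3p libraries, 1.19-fold lower (1.15 to 1.23). Gap43 supplied 71.96% and 71.1% of the family's counts per base of transcript, Marcksl1 7.52% and 10.96%, Basp1 10.6% and 9.11%, and Marcks 9.94% and 8.87%, with the scramble and the anti-miR132-3p shRNA. Most of the family's total is therefore Gap43, the gene whose difference was no longer called after the correction, and the sum itself was not corrected.

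**Figure D2:**
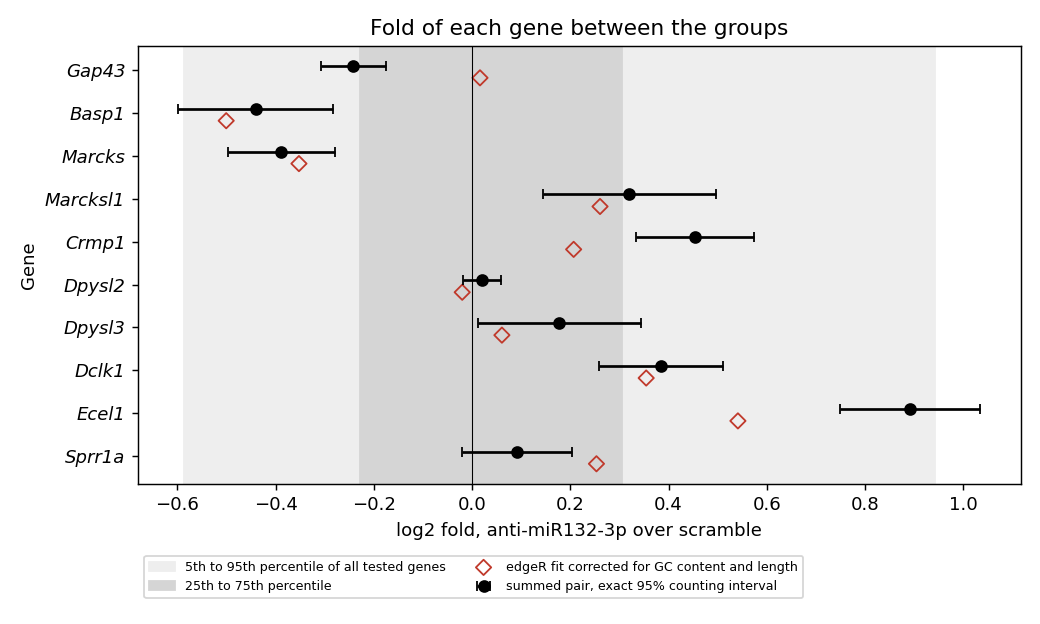
log2 fold of each gene, anti-miR132-3p over scramble: black points with exact 95% counting intervals for the summed pairs, and open red diamonds for the edgeR fit corrected for GC content and length. Bands give the 25th to 75th and the 5th to 95th percentile of all tested genes. Gap43 moves from -0.24 to 0.02 and Ecel1 from 0.89 to 0.54 with the correction.

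The collapsin response mediators were dominated by Dpysl2. Its product, CRMP2, binds tubulin dimers and takes part in the response to semaphorin. Dpysl2 was at 3080.1 and 3023 CPM with the scramble and 3119 and 3065 CPM in the anti-miR132-3p libraries. The groups overlapped, with a summed fold of 1.01 (0.987 to 1.04), which bounds the difference between these pools as far as counting error goes. Dpysl3, whose product CRMP4 is linked to actin and to growth cone shape, was at 156 and 164 CPM against 177 and 185 CPM. Both anti-miR132-3p values lay above both scramble values, but Dpysl3 was not called (1.13-fold, 1.01 to 1.27; edgeR adjusted p = 0.1). It is also the only one of the 10 genes with an 8mer match to the seed.

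Crmp1 encodes CRMP1, another mediator of semaphorin signalling. It was at 272 and 281 CPM with the scramble and 393 and 365 CPM in the anti-miR132-3p libraries. The groups did not overlap and Crmp1 was 1.37-fold higher (1.26 to 1.49). The corrected fit left 1.15-fold with a call (edgeR adjusted p = 0.0138), so the size of the difference depends on the correction. Counts of Crmp1 per count of Dpysl2 rose from 0.0883 and 0.0930 to 0.126 and 0.119, a 1.35-fold higher ratio (1.24 to 1.47) that needs no library scaling and was 1.17-fold in the corrected fit. On the opposite strand Crmp1 overlaps Evc, which had 2 and 8 counts, and strand was not known to be used in counting.

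Among their relatives outside the 10 genes, Dpysl4 stood apart. It encodes CRMP3 and was at 79.3 and 93.5 CPM with the scramble and 194 and 197 CPM in the anti-miR132-3p libraries, 2.26-fold higher (1.98 to 2.60), or 1.85-fold in the corrected fit. Dpysl5 held 33 to 35 counts in each summed pair. The family's 5 genes together were at 3583 and 3857 CPM. Per base of transcript, Dpysl2 held 82.2% of the family with the scramble and 76.2% with the anti-miR132-3p shRNA, Crmp1 11.04% and 13.8%, and Dpysl4 2.96% and 6.13%.

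Dclk1 encodes a kinase whose doublecortin domains bind microtubules and which is found in growing and regrowing axons. Its level was 258 and 258 CPM with the scramble and 335 and 339 CPM in the anti-miR132-3p libraries. Within each group the values nearly coincided, and the groups did not overlap. Dclk1 was 1.31-fold higher (1.20 to 1.42) and 1.28-fold higher in the corrected fit. It is the gene with the 7mer-m8 match printed above, and it has the longest 3' UTR of the 10, at 5334 bases. In the annotation Gm19817, a transcript of unproven status, overlaps Dclk1 on the same strand. It had 88 counts with the scramble and 62 with the anti-miR132-3p shRNA. Of 5 other overlapping genes, Gm42609 had 11 and 8 counts, Gm42608 6 and 12 and Gm42607 1 and 0. Gm25132 was listed at 0, and the identifier of Gm21954 was not found in the counts table. Among other doublecortin genes, Dcx had 81 counts with the scramble and 89 with the anti-miR132-3p shRNA, and neither it nor Dclk2 was called. Dclk2 had fewer counts than Dclk1, 115 and 147, and was 1.34-fold higher (1.04 to 1.72) without overlap of the groups. Dclk3, named after its values were seen, was called higher on 10 and 23 counts (edgeR adjusted p = 0.0476), and it was not called in the corrected fit (edgeR adjusted p = 0.128). The ratio of Dclk1 to Dclk2 counts was 8.10 with the scramble and 7.90 with the anti-miR132-3p shRNA, a change of 0.976-fold (0.746 to 1.27).

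**Figure D3:**
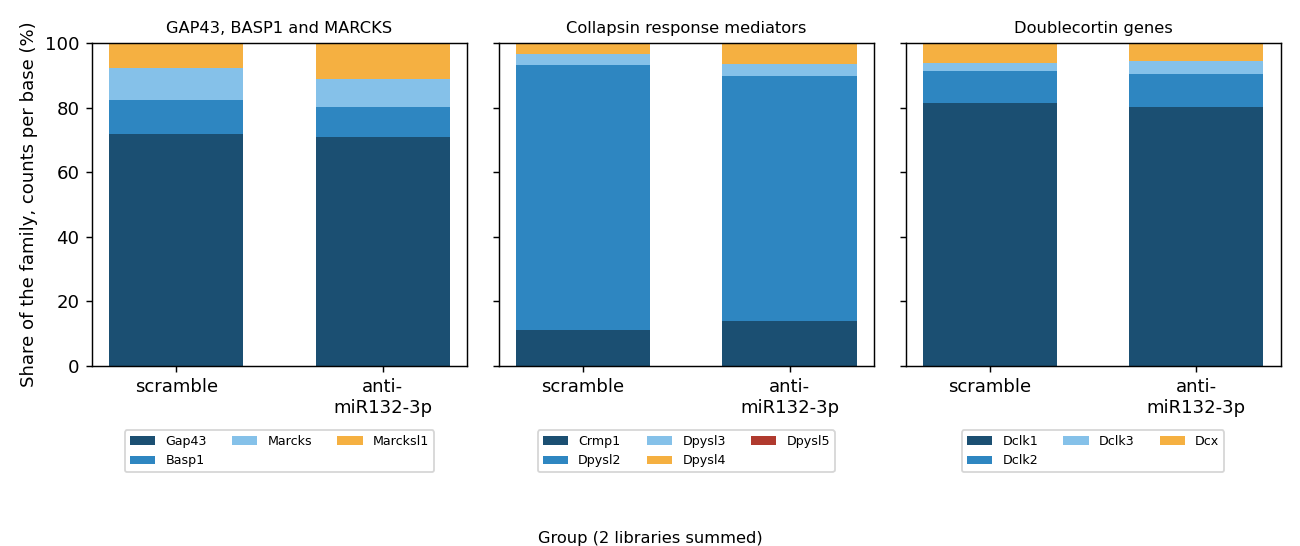
Share of each gene in its family, in counts per base of transcript (percent), for the summed pair of each group, in the membrane-bound, collapsin response mediator and doublecortin families. Marcksl1, Crmp1, Dpysl4 and Dclk3 are among the genes with larger shares with the anti-miR132-3p shRNA, Dclk3 on 10 and 23 counts. The leading gene of each family is the same in both groups. Shares are not from the fit corrected for GC content and length.

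Of the injury-induced effectors, Ecel1 showed the largest difference among the 10 genes. It was at 165 and 184 CPM with the scramble and 315 and 334 CPM in the anti-miR132-3p libraries. The lowest anti-miR132-3p library was far above the highest scramble library. Ecel1 was 1.86-fold higher (1.68 to 2.05), above 94.2% of tested genes by log2 fold change. It is also more GC-rich than 96.5% of them, and the corrected fit gave 1.46-fold (edgeR adjusted p = 1.75e-06). With each pair summed and the spread between pools taken as a coefficient of variation of 0.1, Ecel1 was the only one of the 10 genes still called, against 4.11% of all tested genes higher and 0.49% lower. At an assumed 0.2 none of the 10 was called.

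Sprr1a was at 367 and 349 CPM with the scramble and 377 and 386 CPM in the anti-miR132-3p libraries. The values did not overlap, but the gap was small, and the summed fold of 1.07 (0.986 to 1.15) was not called (edgeR adjusted p = 0.218). In the corrected fit Sprr1a was 1.19-fold higher and was called (edgeR adjusted p = 0.00143). It has the shortest transcript of the 10 genes, longer than that of only 3.60% of tested genes. Its neighbour Sprr1b was listed at 0 in all 4 libraries. Counts of Ecel1 per count of Sprr1a rose from 0.451 and 0.528 to 0.835 and 0.865, a ratio 1.74-fold higher (1.53 to 1.97), and counts of Ecel1 per count of Gap43 rose 2.19-fold (1.97 to 2.45). In the corrected fit the first of these ratios was 1.22-fold and the second 1.44-fold higher.

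Per kilobase of transcript, Gap43 led with the scramble at 810 CPM (785 to 835), followed by Dpysl2 at 675 (663 to 688) and Sprr1a at 444 (420 to 469). Basp1 at 119 and Marcks at 112 had overlapping counting intervals, as did Crmp1 at 90.6 and Marcksl1 at 84.6, and Dclk1 at 32.4 and Dpysl3 at 29.2. Ecel1 lay between at 57.6. With the anti-miR132-3p shRNA, Gap43 at 685 (662 to 708) and Dpysl2 at 684 (671 to 697) could no longer be told apart, and Sprr1a was at 473. Crmp1 at 124, Ecel1 at 107 and Marcksl1 at 106 now stood above Basp1 at 87.7 and Marcks at 85.4, with Ecel1 and Marcksl1 overlapping, and Basp1 and Marcks overlapping. Dclk1 at 42.3 and Dpysl3 at 33.0 remained lowest. By this scale Gap43 ranked 25th of the tested genes with the scramble and 31st with the anti-miR132-3p shRNA, while Ecel1 went from rank 1505 to rank 656. These levels use the longest annotated coding transcript, and a shorter isoform in use would raise them.

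The calls in the 4 lists that follow can be set beside the 13.5% of all tested genes called higher and 10.4% called lower, or 10.7% and 7.27% in the corrected fit. Among the partners of the membrane-bound proteins, 20 genes for calmodulin, kinases, phosphatases and lipid anchors, all tested, 9 were not called, 4 passed the test as higher and 7 as lower. Their median log2 fold change was -0.03, and with library totals in place of TMM it was 0.00. The corrected fit gave 4 and 3 calls and a median of -0.08. Calm3, one of the genes for calmodulin, which binds GAP43 and MARCKS, was at 345 and 342 CPM with the scramble and 753 and 789 CPM in the anti-miR132-3p libraries, 2.24-fold higher (2.10 to 2.40), or 1.96-fold in the corrected fit. Calm2, another calmodulin gene, named after its values were seen, was 1.31-fold lower, but it turned to a log2 difference of 0.05 with no call in the corrected fit. Counts of Calm3 per count of Calm2 were 2.93-fold higher (2.73 to 3.16) with the anti-miR132-3p shRNA, or 1.89-fold in the corrected fit. The other genes named by the rule were Lypla2, a depalmitoylating thioesterase, at 8.87 and 27.6 CPM (3.11-fold higher, 2.06 to 4.797), Csnk2a1, a catalytic subunit of casein kinase 2, 1.42-fold higher, and Pcp4, a calmodulin-binding peptide, 1.57-fold lower. Pcp4 was called neither in the corrected fit (1.14-fold lower) nor by DESeq2.

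Of 19 relatives, kinases and partners of the collapsin response mediators and doublecortins, 17 were tested, 3 were called higher and 2 lower, and the median was -0.04. In the corrected fit the counts were 2 and 4 and the median -0.17. Gsk3b, a kinase that phosphorylates CRMP2, was 1.246-fold lower (1.19 to 1.31), and Rock2, another such kinase, was 1.54-fold lower (1.23 to 1.92). Wasf1, a member of the WAVE complex that CRMP2 binds through Cyfip1, was 1.32-fold higher (1.102 to 1.59). All 3 were also called in the corrected fit, but DESeq2's Wald test called neither Rock2 (adjusted p = 0.143) nor Wasf1 (adjusted p = 0.323). With Dpysl4 these are the 4 genes the rule named.

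Of 34 actin regulators of the growth cone, 32 were tested, of which 9 passed the test as higher and 10 as lower. Their median was -0.05, and the corrected fit gave 7 and 5 calls and a median of -0.01. The bundling protein gene Fscn1 was at 24.97 and 35.4 CPM with the scramble and 90.5 and 96.4 CPM in the anti-miR132-3p libraries. Lasp1, which encodes an actin-binding protein, was 2.44-fold higher (1.53 to 3.99), and Palm, which encodes a lipid-anchored membrane protein, was 1.63-fold higher (1.27 to 2.09). Fscn1, Lasp1 and Palm were also called higher in the corrected fit, at 2.48-fold for Fscn1, 2.00-fold for Lasp1 and 1.41-fold for Palm. DESeq2's Wald test called Fscn1 but neither Lasp1 (adjusted p = 0.121) nor Palm (adjusted p = 0.131). Among the genes called lower, which were named after their values were seen, Actr2, Actr3 and Arpc5 encode subunits of the Arp2/3 complex, which nucleates branched actin. They were 1.33-fold (1.254 to 1.41), 1.46-fold (1.30 to 1.65) and 1.35-fold (1.21 to 1.51) lower, and Arpc5 was not called in the corrected fit. Arpc2, another subunit, was at 226 and 219 CPM and not called, but in the corrected fit it was called 1.23-fold higher. The summed level of the list was 6951 and 6558 CPM.

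Of 27 other injury-induced genes, 23 were tested, of which 4 passed as higher and 7 as lower. Their median was -0.12, and the corrected fit gave the same counts and a median of -0.01. Chl1, an adhesion molecule of growing axons, was 1.71-fold higher (1.26 to 2.33). Plat, which encodes tissue plasminogen activator, was 1.67-fold lower (1.32 to 2.13), Bdnf, a neurotrophin, 1.65-fold lower (1.30 to 2.10), and Hspb1, a small heat shock protein, 1.63-fold lower (1.23 to 2.15). All 4 kept their calls in the corrected fit, but DESeq2's Wald test called none of them, with adjusted p of 0.222 for Chl1, 0.0802 for Plat, 0.0955 for Bdnf and 0.204 for Hspb1. The list medians can be set beside -0.0030 for all tested genes in the main fit. For all tested genes the median was 0.0352 in the corrected fit and 0.0237 with library totals.

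**Figure D4:**
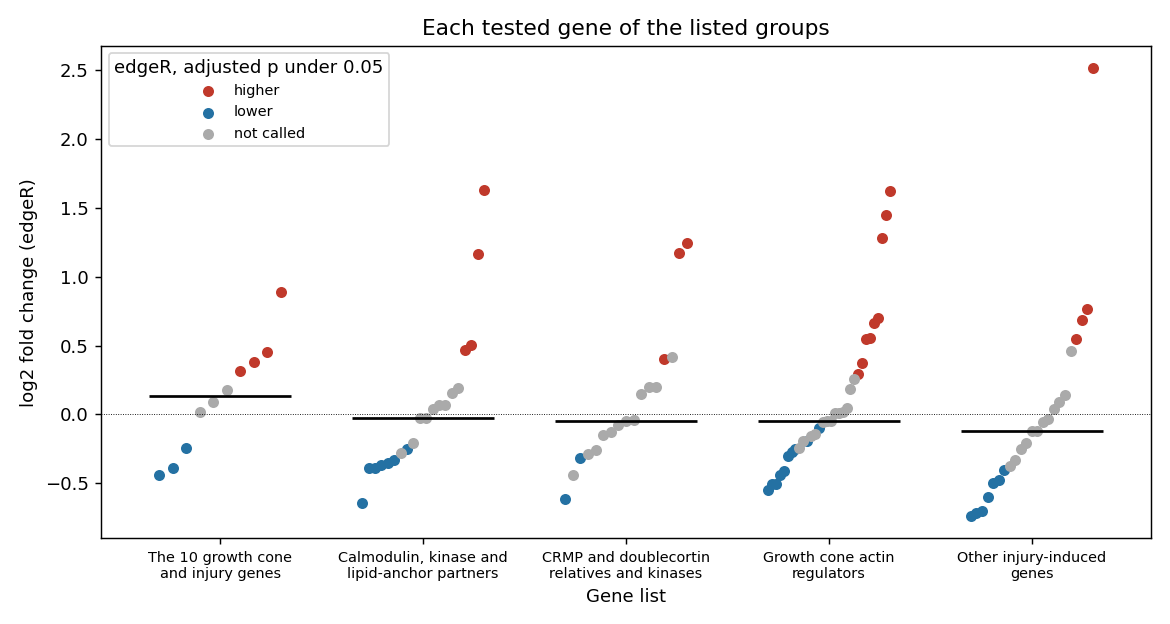
edgeR log2 fold change of each tested gene in the 10 growth cone and injury genes and in the other 4 lists, sorted within each list, red for called higher, blue for called lower and grey for not called, with bars at the medians. Each list holds calls in both directions, and the medians lie between -0.12 and 0.13.

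The dependence of each gene on the settings is drawn as a map. Basp1, Marcks, Crmp1 and Dclk1 were each called in 9 of 13 alternatives that kept all 4 libraries, Marcksl1 in 8, Gap43 in 7, Ecel1 in 10 and Sprr1a in 2, and Dpysl2 and Dpysl3 in 0. Over those 13 the log2 fold change of Basp1 ran from -0.50 to -0.41, of Marcks from -0.39 to -0.35, of Dclk1 from 0.35 to 0.41, of Crmp1 from 0.21 to 0.48 and of Ecel1 from 0.54 to 0.92. When a library was left out, 0 of the 10 genes were called by edgeR's quasi-likelihood test, with 6 to 7 of them at an unadjusted p under 0.05, whichever library it was. The log2 fold change of Marcksl1 then ran from 0.19 without scramble replicate 2 to 0.44 without scramble replicate 1.

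**Figure D5:**
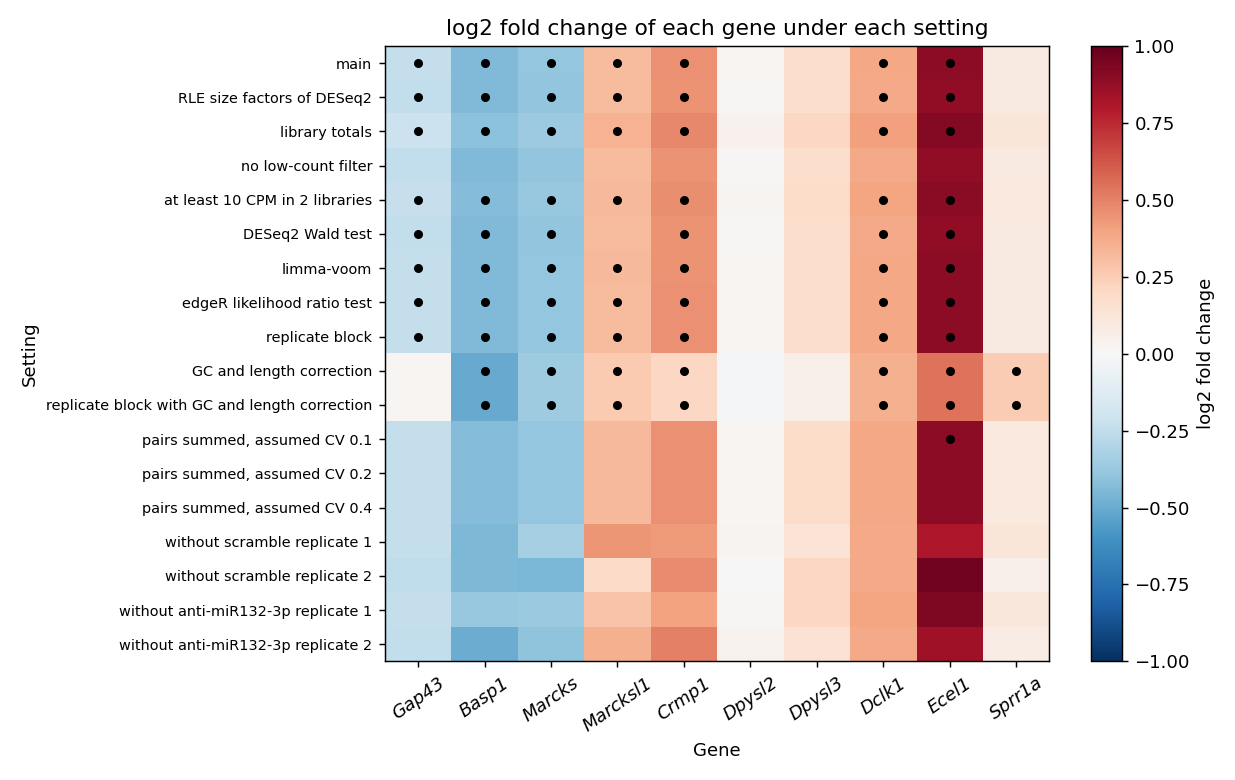
log2 fold change (colour) of the 10 genes under each setting (rows); black dots mark an adjusted p under 0.05. The colours of a column change sign only for Gap43 and Dpysl2, with the GC and length correction, and dots are absent with no low-count filter, at an assumed coefficient of variation of 0.2 or 0.4 and when a library is left out.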

How the data were processed

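The authors deposited whole-number counts per gene for 4 libraries, with 78334 versioned Ensembl identifiers. The submitters' processing notes list HISAT2 2.2.1 (GRCm39), Trimmomatic 0.39, Cufflinks with Cuffnorm and Cuffdiff, and SAMtools 1.10. No source used here gives the read counter, annotation release or strand. Symbols came from GENCODE M21 (51486 identifiers matched), which is of an older build, so no gene coordinates are given, and its transcripts supplied length, GC content and 3' UTRs.

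The test was edgeR 4.0.16 in R 4.3.3 (filterByExpr, TMM, glmQLFit with legacy set to FALSE, glmQLFTest) on all 4 libraries without covariates, and figures were drawn in Python 3.11.15. The tested genes held 98.6% of the counts. Alternatives used limma 3.58.1, DESeq2 1.42.0, other scalings and filters, spline offsets for GC content and length (4 degrees of freedom each), a replicate block, left-out libraries and assumed spreads between pools. The scripts were tested on simulated data. Intervals of folds are Clopper-Pearson, those of ratios conditional exact and those of levels Poisson; all cover counting error only. The labels do not tie the 2 libraries of a group to different animals.

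The 10 genes and the lists were chosen with earlier results of these data known. From each other list up to 4 called genes of at least 5 CPM with the largest fold were named, with genes overlapping the 10; some that the rule names are not reported here.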

Additional observations from a re-analysis of the deposited data

How the results depend on the processing

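Calls rest on the spread within the pairs. Without a filter on low counts edgeR called 0 of the 10 genes higher and 0 lower, and 1 and 2 of all genes, with 7 of the 10 and 5192 genes at an unadjusted p under 0.05; edgeR's prior degrees of freedom were 1.16 there against 14.1. With pairs summed and an assumed coefficient of variation of 0.1, 1 and 0 of the 10 genes and 470 and 56 of all genes were called; at 0.2, 0 and 0, and 50 and 6; at 0.4, 0 and 0, and 13 and 1. Leaving out a library gave 0 to 0 of the 10 genes and 0 to 0 of all genes in either direction, the lone library being assumed to vary like the remaining pair. With DESeq2, 481 and 274 of all genes and 3 and 3 of the 10 were called, with no adjusted p for 1551 genes. With the GC and length correction, without and with the replicate block, the log2 fold change of Gap43 turned to 0.0160 and 0.0160 and that of Dpysl2 to -0.0202 and -0.0202, and the cause was not tested. Other scalings, limma-voom, the likelihood ratio test and 10 CPM in 2 libraries kept 4 and 3 of the 10 called. Over these settings 1471 to 1693 of all genes were called higher and 888 to 1365 lower.

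Replicates share numbers across groups, but their deviations were hardly correlated (r = 0.01), so the number was not taken to pair them. The replicate block called 1740 and 1437 of all genes against 1540 and 1183, and 4 and 3 of the 10.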
